A study of Rattus norvegicus with 12 samples.

Results

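The 44 genes described here encode the mTOR kinase complexes and their regulators and targets, the autophagy machinery, and the lysosome. They were chosen by name from a list of 44 symbols, with the added condition of 10 or more counts in 3 or more libraries. All 44 symbols matched a row and met that condition, out of 32883 gene rows, and all 44 were among the 14063 genes tested. The rule itself uses no measured difference between groups, but the list was drawn up with earlier results of these data known. The role classes below follow from what each protein does.

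Autophagy delivers cytoplasm and organelles to the lysosome for breakdown. The mTORC1 kinase, built around mTOR and raptor, promotes protein synthesis when nutrients are plentiful and holds back the ULK1 kinase that starts autophagosome formation, while AMPK acts on both in the opposite sense. Transcription factors of the TFEB family enter the nucleus when mTORC1 activity is low and switch on lysosomal and autophagy genes through E-box sequences known as CLEAR elements. In heart muscle these pathways help to set cell size and clear damaged mitochondria, the latter through receptors such as BNIP3 and through the PINK1 kinase.

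The cells were rat ventricular heart muscle cells taken from newborns and kept in primary culture. Every culture received an adenovirus and was collected after 2 days. The control virus carried LacZ (bacterial beta-galactosidase), and the other viruses carried human KAT6A, a lysine acetyltransferase, as the wild type (WT), as K815R (described by the submitters as resistant to acetylation) or as K815Q (described as an acetylation mimic). Each of the 4 groups had 3 libraries of poly(A) RNA. No group without virus was part of the set, the promoter driving the viral inserts is not given in the sources used here, and nothing states that the 3 libraries of a group came from separate cell preparations, so the p-values measure only the spread between these libraries, which may be technical.

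The libraries held 19102048 to 25451686 counts on gene rows, at which 3 counts equal 0.118 to 0.156 CPM (counts scaled to a common library size after TMM normalisation). Rat Kat6a, used as a check of the labels, was at 48.1 ± 4.75 CPM in LacZ, 93 ± 12.3 under WT, 108 ± 11.7 under K815R and 46.3 ± 3.35 in K815Q (SD, n = 3). It was thus not raised in the libraries labelled K815Q. They are called the K815Q-labelled libraries below, and a direction stated for that group is only as sound as its label. Prkaa2, which encodes the AMPK alpha-2 catalytic subunit, was at 60.9 ± 10.2 CPM in LacZ, 519 ± 102 under WT, 87.2 ± 8.7 under K815R and 1170 ± 55.4 in the K815Q-labelled libraries. Its part in the differences below was not tested. All 10 cardiomyocyte markers examined were present. Their summed level was 38700 to 40300 CPM in LacZ and 40500 to 41800 in WT. It was 41700 to 42800 in K815R and 39700 to 41600 in the K815Q-labelled libraries. Fibroblast markers summed to 11900 to 12800 CPM in LacZ and 11000 to 12100 in WT. They summed to 11100 to 11600 in K815R and 12000 to 12900 in the K815Q-labelled libraries. The part of cell content in the differences below was not tested. Interferon-stimulated genes summed to 582 to 933 CPM in LacZ and to 148 to 292 CPM over the libraries of the other groups. With bulk RNA, fewer cells of a type and less RNA per cell cannot be told apart.

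Differences were tested with edgeR's quasi-likelihood test over all 14063 genes, and a gene was called at a Benjamini-Hochberg adjusted p under 0.05. In WT against LacZ, 2 of 44 members (4.55%) were called, both higher, where 5.34% of all genes were called (1.95% higher and 3.39% lower). None was called lower, and DESeq2 also called 2 higher and 0 lower. At an unadjusted p under 0.05 there were 7 higher and 3 lower (22.7% of members, beside 19.1% of all genes). In K815R against LacZ, 1 member (2.27%) was called, and it was higher, beside 2.47% of all genes (0.74% higher and 1.74% lower). None was called lower there, and DESeq2 called 1 and 0. The unadjusted counts were 6 higher and 1 lower (15.9% of members, beside 13.8% of all genes). In the K815Q-labelled libraries against LacZ, 6 members (13.6%) were called beside 7.85% of all genes. Of these, 4 were higher (9.09% of members, 2.87% of all genes) and 2 were lower (4.55% of members, 4.98% of all genes). The test over all 4 groups at once called 5 members (11.4%), Mtor, Eif4ebp1, Eef2k, Tfeb and Pink1, beside 8.13% of all genes. The shares of members called in WT and K815R lay near the background. Counts moved with single libraries: the 6 became 2 without LacZ replicate 2 and 1 without LacZ replicate 3 or K815Q replicate 1, the 5 became 3 without LacZ replicate 3 or K815R replicate 3 and 2 without K815Q replicate 1, and the 2 and the 1 each lost 1 gene under the libraries named with Eef2k and Eif4ebp1 below.

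Fold changes of the members were small. The median log2 fold change of the 44 against LacZ was 0.02 under WT, 0.02 under K815R and 0.02 in the K815Q-labelled libraries, and that of all genes was 0.01, 0.003 and 0.01. The median size of the log2 fold change, regardless of sign, was 0.07, 0.06 and 0.09 for the members and 0.10, 0.08 and 0.12 for all genes. Against LacZ, 39, 43 and 34 of the 44 members differed from the control by less than 0.2 on the log2 scale in WT, K815R and the K815Q-labelled libraries. The 95% interval lay wholly within 0.5 of no change for 44, 43 and 41 of them. The 3 comparisons share the LacZ libraries.

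**Figure D1:**
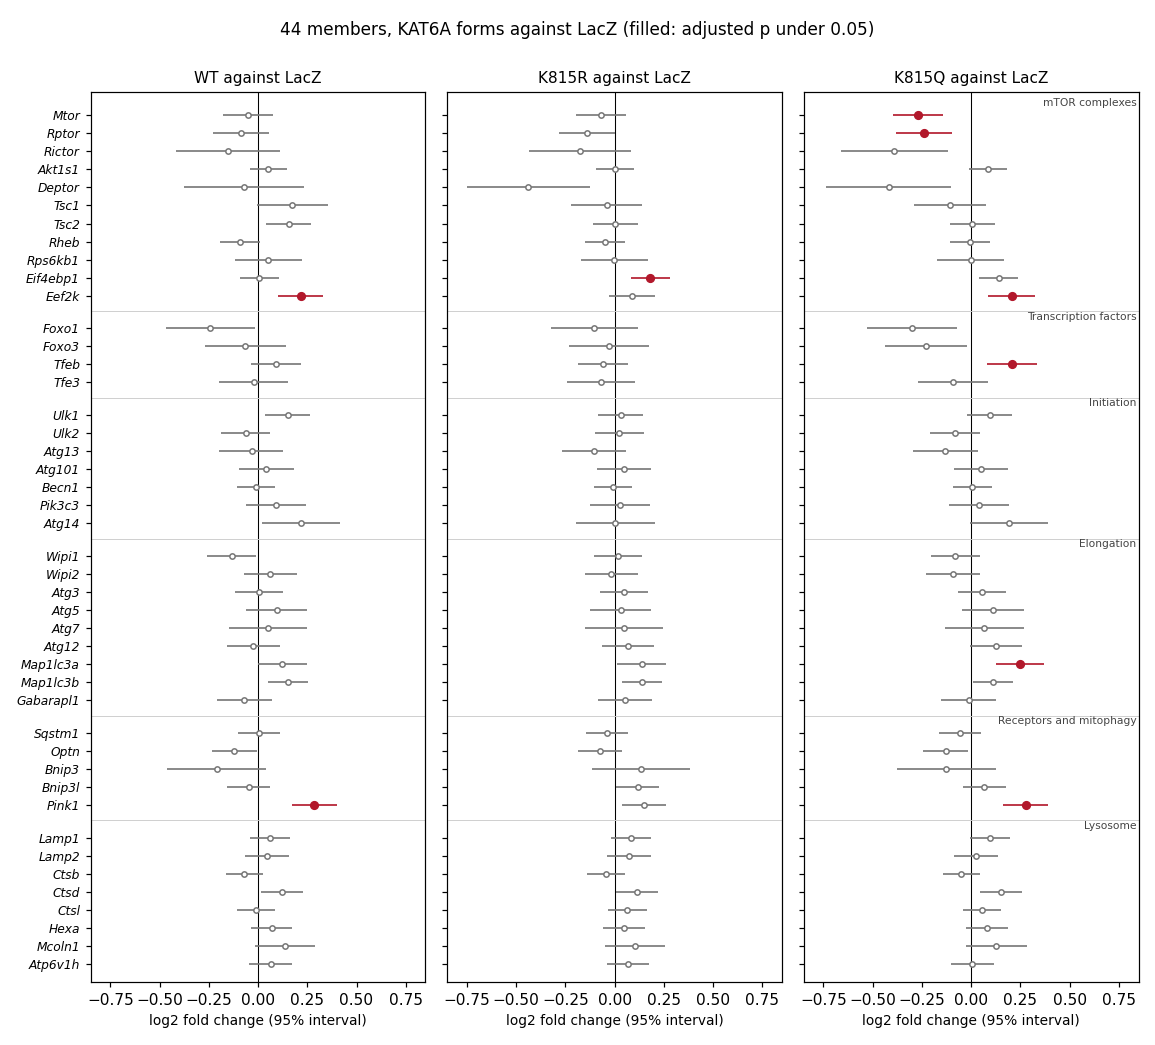
Log2 fold change of each of the 44 members (rows, by role) against LacZ for WT, K815R and the K815Q-labelled libraries, with 95% intervals; filled points passed the test. Most points lie within 0.2 of 0, and the filled points are Pink1 and Eef2k in WT, Eif4ebp1 in K815R, and Mtor, Rptor, Eef2k, Tfeb, Map1lc3a and Pink1 in the K815Q-labelled libraries.

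Of the 7 members called, 4 had a promoter entry in RefSeq (build GRCr8), a window of 250 bases before to 50 bases after the annotated start. The E-box CACGTG occurred in the windows of 2 of the 4, Pink1 and Eef2k, and not in those of Mtor and Tfeb. The pair with the motif is shown. Each line gives the 250 bases before the start, 5′ to 3′ on the gene's strand, with CACGTG in capitals. The Pink1 stretch is chr5:155825951-155826200 (minus strand), with matches beginning 161 and 98 bases before the start. The Eef2k stretch is chr1:184824170-184824419 (plus strand), with a match beginning 77 bases before the start.
Pink1: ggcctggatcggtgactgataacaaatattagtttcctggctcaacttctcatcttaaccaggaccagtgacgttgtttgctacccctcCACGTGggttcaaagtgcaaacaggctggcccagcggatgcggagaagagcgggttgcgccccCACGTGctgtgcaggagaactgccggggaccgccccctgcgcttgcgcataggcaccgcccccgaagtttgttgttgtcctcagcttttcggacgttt
Eef2k: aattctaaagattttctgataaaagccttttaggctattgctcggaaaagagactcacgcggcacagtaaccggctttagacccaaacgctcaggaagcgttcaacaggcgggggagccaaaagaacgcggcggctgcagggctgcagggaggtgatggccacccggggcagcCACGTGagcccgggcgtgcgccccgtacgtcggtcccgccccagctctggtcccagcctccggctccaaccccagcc

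Of the 44 members, 34 had a RefSeq promoter entry. CACGTG, which reads the same on both strands, occurred in 11 of the 34 windows (32.4%), against 2148 of 33465 windows in the whole table (6.42%) and 992 of the 11346 whose genes reached 10 counts in 3 libraries (8.74%). The longer TCACGTGA, which contains CACGTG and is the core of the CLEAR element, occurred in 4 of 34 (11.8%), against 260 (0.777%) and 177 (1.56%). Those 4 were Atg3, Lamp1, Ctsd and Mcoln1, none of which was called by edgeR in any comparison. In 3 of them the match lay before the start, and the 30 bases around it are shown with TCACGTGA in capitals, to set beside the TFEB and lysosome values below. The Lamp1 match begins 66 bases before the start (chr16:83075111-83075140, minus strand), and a further one lies 39 bases before it. The Ctsd match begins 11 bases before the start (chr1:206968822-206968851, minus strand), and the Atg3 match 17 bases before it (chr11:69159281-69159310, minus strand). A match describes the letters only. Rptor, Deptor, Eif4ebp1, Foxo3, Becn1, Map1lc3a, Bnip3l, Ctsb, Hexa and Atp6v1h had no entry.
Lamp1: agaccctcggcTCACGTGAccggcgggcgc
Ctsd: tccgcccctcgcccgcgtcTCACGTGAccc
Atg3: cgggagattcgagTCACGTGAggcctagga

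Among the 11 genes of the mTOR complexes, their regulators and their targets, Mtor and Rptor fell and Eef2k rose in the K815Q-labelled libraries. Eef2k also rose in WT, and Eif4ebp1 rose in K815R. The other 7 were not called in any comparison by edgeR in the main fit (all 12 libraries, low-count genes filtered out, no replicate block).

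Mtor encodes the kinase shared by mTORC1 and mTORC2. Its level was 69.1, 79.2 and 81.3 CPM in LacZ, 70.3, 76.1 and 74.9 under WT, 68.4, 76.1 and 74.3 under K815R, and 61, 65.1 and 64.2 in the K815Q-labelled libraries. The last 3 values lay below all 9 others. The log2 fold change against LacZ was -0.27 ± 0.06 (SE; 95% interval -0.398 to -0.143; adjusted p = 0.00926), a level 17.1% lower. Without LacZ replicate 2, LacZ replicate 3 or K815Q replicate 1, one at a time, the adjusted p was 0.0561, 0.0631 and 0.073. Against WT, the log2 fold change of the same libraries was -0.22 (adjusted p = 0.0925), and WT and K815R themselves lay at -0.05 and -0.07 against LacZ (adjusted p = 0.701 and 0.69). Rptor encodes raptor, the subunit that presents substrates to mTORC1. It was at 45.9, 48.3 and 47.9 CPM in LacZ, 44.5, 41.4 and 47.9 under WT, 39.1, 47.8 and 41.5 under K815R, and 38.8, 41.1 and 40.4 in the K815Q-labelled libraries. The latter overlapped K815R but neither LacZ nor WT. The log2 difference from LacZ was -0.24 ± 0.07 (SE; adjusted p = 0.0376), and the adjusted p was 0.118, 0.111, 0.162 and 0.0811 without LacZ replicate 2, LacZ replicate 3, K815Q replicate 1 and K815Q replicate 3.

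Both genes are long, and fold changes of all genes varied with gene length. Of the 14063 genes tested, 12280 (87.3%) had a genomic length in the RefSeq annotation of GRCr8. In the K815Q-labelled libraries against LacZ, the median log2 fold change ran from 0.07 in the shortest quintile of genes (up to 8.53 kb) through 0.03, 0.004 and -0.03 to -0.07 in the longest quintile (75.1 kb and more). In WT it ran from 0.04 to -0.02 and in K815R from 0.05 to -0.03. Mtor (109 kb) and Rptor (298 kb) were in the longest quintile. With each library's trend over length removed, an alternative chosen after the data were seen, Mtor stood at -0.20 (adjusted p = 0.0282) and Rptor at -0.17 (adjusted p = 0.101), so the Rptor call was lost. In that annotation 15 of the 44 members share part of their span with another gene, Mtor (with Angptl7), Eef2k and Tfeb among them, and the strand setting of the counting is not given in the sources used here.

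**Figure D2:**
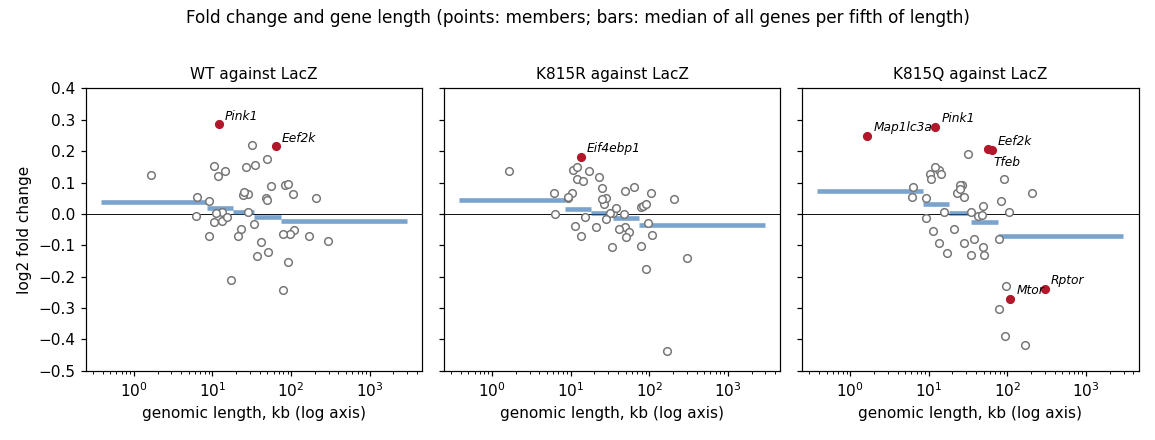
Log2 fold change against LacZ (y axis) of the 44 members (points) by genomic length in kb on a log axis, in WT, K815R and the K815Q-labelled libraries; filled points passed the test, and bars show the median of all genes in each quintile of length. In the right panel the bars descend from 0.07 to -0.07, Mtor and Rptor lie below the bar of the longest quintile, and Map1lc3a lies above that of the shortest.

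Eef2k encodes the kinase that inactivates elongation factor eEF2 and so slows translation, and mTORC1 signalling restrains it. It was at 44.3, 49 and 46.1 CPM in LacZ, 55.4, 52.7 and 53.8 under WT, 50.5, 48 and 49.6 under K815R, and 53.1, 51.3 and 56.3 in the K815Q-labelled libraries. All values of WT and of the K815Q-labelled libraries lay above those of LacZ and K815R. The log2 fold change against LacZ was 0.22 ± 0.06 in WT (SE; adjusted p = 0.0242) and 0.20 ± 0.06 in the K815Q-labelled libraries (SE; adjusted p = 0.0298), and in K815R it was 0.09 (adjusted p = 0.545). K815R against WT gave -0.13 (adjusted p = 0.298), so the response was not shown to differ between these forms. The WT call held without LacZ replicate 2, but the adjusted p was 0.0582 to 0.111 without LacZ replicate 1, LacZ replicate 3 or any of WT replicates 1, 2 and 3. The other call had an adjusted p of 0.0877 to 0.126 without LacZ replicate 1, LacZ replicate 3, K815Q replicate 1 or K815Q replicate 3, and of 0.0507 when fitted on those 6 libraries alone.

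Eif4ebp1 encodes 4E-BP1, the translation repressor that mTORC1 inactivates by phosphorylation. The libraries gave 153, 162 and 147 CPM in LacZ, 153, 157 and 154 under WT, 177, 170 and 177 under K815R, and 165, 172 and 173 in the K815Q-labelled libraries. K815R and the K815Q-labelled libraries both lay above all LacZ and WT libraries. K815R against LacZ gave 0.18 ± 0.05 on the log2 scale (SE; 95% interval 0.0833 to 0.281; adjusted p = 0.0397). Without LacZ replicate 1, LacZ replicate 3, K815R replicate 1 or K815R replicate 3 the adjusted p was 0.109, 0.197, 0.144 and 0.147, and it was 0.0941 when only those 6 libraries were fitted. The libraries labelled K815Q stood at 0.14 against LacZ (adjusted p = 0.0717). K815R against WT was 0.18 (adjusted p = 0.0562), which DESeq2 called (adjusted p = 0.0293).

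Deptor, an inhibitor that binds mTOR, had the lowest fold change of the 44 members against LacZ in K815R and in the K815Q-labelled libraries, but few counts. Its values were 4.57, 4.59 and 5.53 CPM in LacZ, 4.06, 4.34 and 5.56 under WT, 3.4, 3.7 and 3.72 under K815R, and 3.01, 3.5 and 4.48 in the K815Q-labelled libraries. The last 2 groups did not overlap LacZ, and the log2 fold changes were -0.44 ± 0.15 in K815R (SE; adjusted p = 0.151) and -0.42 ± 0.15 in the K815Q-labelled libraries (SE; adjusted p = 0.092). Rictor, the mTORC2 subunit, stood at -0.39 ± 0.13 in the latter (SE; adjusted p = 0.0676) and overlapped LacZ. Without the filter on low counts edgeR called Rictor there (adjusted p = 0.00947). Deptor and Rictor are in the longest quintile of genes. The TSC complex genes Tsc1 and Tsc2, the mTORC1 activator Rheb, the mTORC1 inhibitor Akt1s1 and the S6 kinase gene Rps6kb1 were not called. Tsc1 and Tsc2 stood at 0.17 and 0.16 in WT against LacZ (adjusted p = 0.277 and 0.103). Both were lower in all K815R and K815Q-labelled libraries than in all WT libraries. K815R against WT gave -0.215 and -0.15 (adjusted p = 0.248 and 0.177). The K815Q-labelled libraries against WT gave -0.28 and -0.15 (adjusted p = 0.132 and 0.206).

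**Figure D3:**
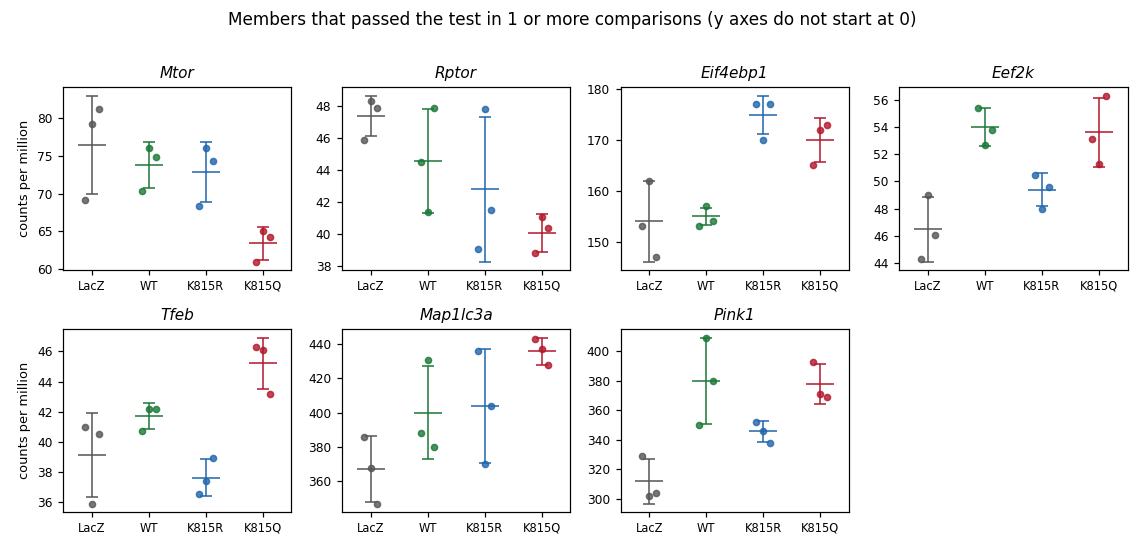
CPM (y axis, not starting at 0) of the 7 members called in 1 or more comparisons, by group; points are libraries, the horizontal bar is the mean and the whiskers are 1 SD (n = 3). Mtor is lowest in the K815Q-labelled libraries (61 to 65.1 CPM), and Pink1 is lowest in LacZ (302 to 329 CPM).

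Of the 4 transcription factor genes, Tfeb alone was called by edgeR in the main fit. Tfeb encodes the regulator of lysosome and autophagy genes that mTORC1 keeps in the cytoplasm. It was at 41, 35.9 and 40.5 CPM in LacZ, 40.7, 42.2 and 42.2 under WT, 36.5, 37.4 and 38.9 under K815R, and 46.3, 46.1 and 43.2 in the K815Q-labelled libraries. The libraries labelled K815Q lay above all 9 others, and K815R overlapped LacZ. Their log2 fold change against LacZ was 0.21 ± 0.06 (SE; 95% interval 0.08 to 0.332; adjusted p = 0.0399). The adjusted p was 0.196 without LacZ replicate 2, 0.0643 without LacZ replicate 3, 0.16 without K815Q replicate 1 and 0.0857 without K815Q replicate 2. It was 0.0584 in DESeq2 and 0.0654 with only those 6 libraries. K815R against the K815Q-labelled libraries gave -0.26 ± 0.06 (SE; adjusted p = 0.0581), the lowest fold change of the 44 members in that comparison, and DESeq2 called it (adjusted p = 0.0409). Its relative Tfe3 stood at -0.02 to -0.09 against LacZ in the 3 groups. Foxo1 and Foxo3, forkhead factors that switch on autophagy genes, stood at -0.30 and -0.23 in the K815Q-labelled libraries. Neither was called in the main fit, but without the filter on low counts edgeR called Foxo1 there (adjusted p = 0.0373). Foxo1 (78.4 kb) and Foxo3 (96.3 kb) are in the longest quintile of genes.

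The 7 genes of the initiation complexes, Ulk1, Ulk2, Atg13 and Atg101 of the ULK complex and Becn1, Pik3c3 and Atg14 of the class III PI3 kinase, gave no call in any of the 6 comparisons with edgeR or DESeq2. At an unadjusted p under 0.05, 2 were higher in WT against LacZ (Ulk1 and Atg14) and 2 were lower in K815R against WT. Of all genes, 19.1% and 13.8% passed that threshold in these comparisons, in either direction. Ulk1, the kinase that starts autophagosome formation, was at 166, 181 and 175 CPM in LacZ, 191, 184 and 204 under WT, 176, 177 and 180 under K815R, and 171, 188 and 198 in the K815Q-labelled libraries. WT lay above LacZ in every library, at 0.15 ± 0.06 on the log2 scale (SE; adjusted p = 0.125). Becn1, which encodes beclin 1, stayed between 128 and 137 CPM in all 12 libraries.

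Among the 9 genes of autophagosome elongation, Map1lc3a rose in the K815Q-labelled libraries, and the others were not called. Map1lc3a encodes an LC3 protein, the ubiquitin-like tag attached to autophagosome membranes. It was at 386, 368 and 347 CPM in LacZ, 388, 431 and 380 under WT, 436, 370 and 404 under K815R, and 443, 437 and 428 in the K815Q-labelled libraries. The last group lay above all LacZ libraries and overlapped WT and K815R. The log2 fold change against LacZ was 0.25 ± 0.06 (SE; 95% interval 0.124 to 0.371; adjusted p = 0.0133). Without LacZ replicate 2, LacZ replicate 3 or K815Q replicate 1 the adjusted p was 0.056, 0.083 and 0.0766. At 1.65 kb the gene is in the shortest quintile, and with the length trend removed its log2 fold change was 0.16 (adjusted p = 0.0428).

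Map1lc3b, the LC3 gene most used as an autophagosome marker at the protein level, was at 122, 115 and 112 CPM in LacZ, 125, 127 and 136 under WT, 125, 131 and 129 under K815R, and 124, 127 and 125 in the K815Q-labelled libraries. All WT, K815R and K815Q-labelled libraries lay above all LacZ libraries, by 0.15, 0.14 and 0.11 on the log2 scale (adjusted p = 0.0759, 0.164 and 0.174). None of these passed. The remaining genes ranged from -0.13 to 0.13 against LacZ. They were Atg3, Atg5, Atg7 and Atg12 of the conjugation system, the phosphoinositide-binding Wipi1 and Wipi2, and the LC3 relative Gabarapl1.

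Pink1, the kinase that marks damaged mitochondria for removal, had the highest fold change of the 44 members against LacZ in WT and in the K815Q-labelled libraries. The libraries gave 329, 302 and 304 CPM in LacZ, 350, 409 and 380 under WT, 352, 346 and 338 under K815R, and 393, 371 and 369 in the K815Q-labelled libraries. All WT, K815R and K815Q-labelled libraries lay above the 3 LacZ libraries. The log2 fold change was 0.28 ± 0.05 in WT (SE; 95% interval 0.171 to 0.399; adjusted p = 0.00258), a level 21.8% higher. In the K815Q-labelled libraries it was 0.28 ± 0.06 (SE; 95% interval 0.163 to 0.391; adjusted p = 0.00306), a level 21.2% higher. K815R stood at 0.15 ± 0.05 (SE; adjusted p = 0.19). K815R against WT was -0.14 (95% interval -0.25 to -0.0225; adjusted p = 0.243), so a smaller response in K815R was not shown. Both calls held without each of the 6 libraries in turn, with adjusted p-values up to 0.0318 and 0.0345.

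None of the other 4 receptor and mitophagy genes was called by edgeR with all 12 libraries in the fit. Sqstm1, which encodes the cargo receptor p62, was at 445, 474 and 442 CPM in LacZ, 436, 445 and 483 under WT, 447, 432 and 446 under K815R, and 442, 415 and 454 in the K815Q-labelled libraries. The groups overlapped, and the log2 fold changes against LacZ were 0.002, -0.04 and -0.06. Optn, another receptor for ubiquitin-marked cargo, stood at -0.12 in WT. Bnip3, a mitophagy receptor of the outer mitochondrial membrane, ranged from 114 to 175 CPM over the libraries. It was higher in all K815R libraries than in all WT libraries, at 0.35 ± 0.11 (SE; adjusted p = 0.186), which DESeq2 called (adjusted p = 0.0173), as did edgeR on only the 6 libraries compared (adjusted p = 0.0167). The related Bnip3l stood at 0.12 in K815R against LacZ.

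None of the 8 lysosomal genes was called by edgeR in any comparison, and DESeq2 called 1 of them once. At an unadjusted p under 0.05 there was 1 higher against LacZ in each of WT, K815R and the K815Q-labelled libraries, in every case Ctsd. Of all genes, 19.1%, 13.8% and 24.2% passed that threshold, in either direction. The median log2 fold change of the 8 against LacZ was 0.06, 0.07 and 0.07, and 6, 7 and 7 of the 8 were above 0. Ctsd, the aspartic protease cathepsin D, was at 803, 775 and 748 CPM in LacZ, 804, 892 and 832 under WT, 847, 829 and 838 under K815R, and 900, 832 and 851 in the K815Q-labelled libraries. Every WT, K815R and K815Q-labelled library was above every LacZ library, with log2 fold changes of 0.12, 0.11 and 0.15 (adjusted p = 0.19, 0.324 and 0.0711). The last of these was the one DESeq2 called (adjusted p = 0.0445). Lamp1, a glycoprotein of the lysosomal membrane, was at 505, 489 and 503 CPM in LacZ, 510, 545 and 504 under WT, 536, 521 and 530 under K815R, and 561, 520 and 515 in the K815Q-labelled libraries. K815R and the K815Q-labelled libraries did not overlap LacZ, and the differences were 0.06, 0.08 and 0.09 on the log2 scale, none called. The lysosomal calcium channel gene Mcoln1 stood at 0.14, 0.11 and 0.13. Ctsb, Ctsl, Hexa, Lamp2 and the V-ATPase subunit gene Atp6v1h lay between -0.07 and 0.08. Macrophages are rich in lysosomes, and their 14 marker genes summed to 77.5 to 98 CPM in LacZ, 95.1 to 104 in WT, 99.1 to 105 in K815R and 97.8 to 107 in the K815Q-labelled libraries. None of the 14 was at 0 counts in any library. Their median log2 fold change against LacZ was 0.139 in WT, 0.21 in K815R and 0.235 in the K815Q-labelled libraries. At an unadjusted p under 0.05, 5, 3 and 4 of them were higher and 1, 0 and 1 lower. The only marker called, Adgre1, went against the median, being lower in the K815Q-labelled libraries. Their part in the lysosomal values was not tested.

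**Figure D4:**
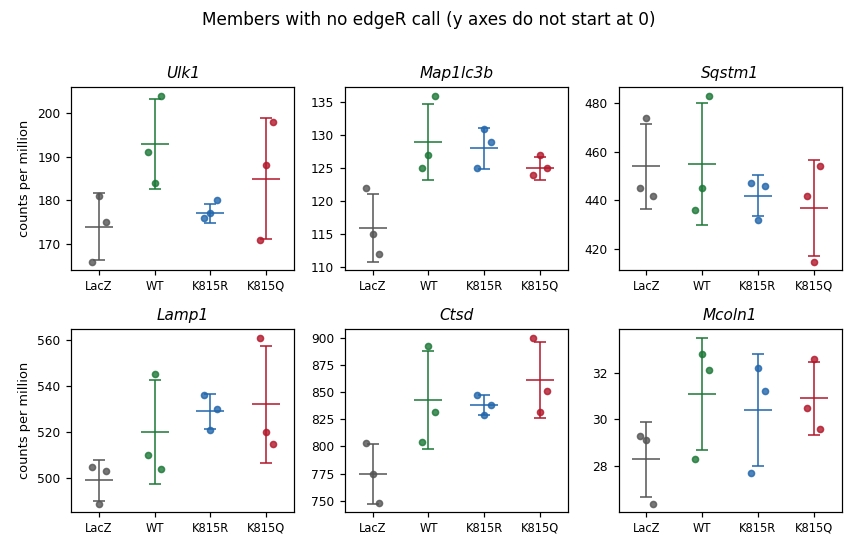
CPM (y axis, not starting at 0) by group of 6 members with no edgeR call; points are libraries, the horizontal bar is the mean and the whiskers are 1 SD (n = 3). Ctsd and Map1lc3b are lowest in the 3 LacZ libraries (748 to 803 and 112 to 122 CPM), and Sqstm1 overlaps in all groups.

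Between the groups labelled as KAT6A forms, no member was called with edgeR in the main fit. Of all genes, 2.2% were called in K815R against WT, 1.07% in the K815Q-labelled libraries against WT and 0.363% in K815R against the K815Q-labelled libraries. At an unadjusted p under 0.05 there were 12, 10 and 5 of the 44 members (27.3%, 22.7% and 11.4%), beside 13.8%, 14.4% and 11.4% of all genes. DESeq2 called 2, 0 and 1, which were Bnip3 and Eif4ebp1 (higher in K815R than in WT) and Tfeb (lower in K815R than in the K815Q-labelled libraries). The median log2 fold change of the members was -0.01, -0.01 and 0.004. For 42, 42 and 43 of the members the 95% interval lay within 0.5 of no change.

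**Figure D5:**
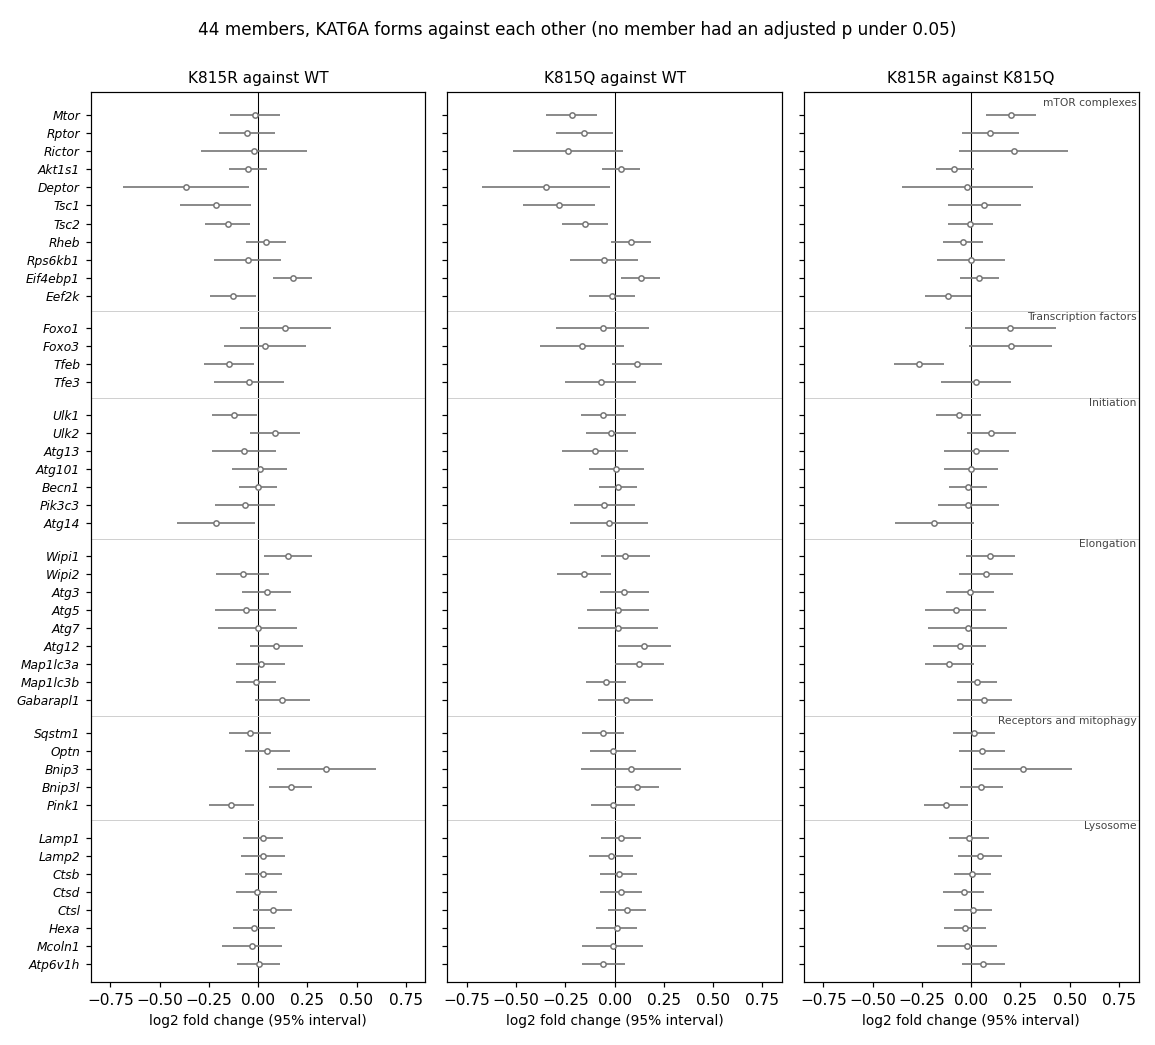
Log2 fold change of each of the 44 members (rows, by role) between the groups labelled as KAT6A forms, with 95% intervals. Open points had no edgeR call. The extremes are Deptor at -0.37 and Bnip3 at 0.35 in K815R against WT, and Tfeb at -0.26 in K815R against the K815Q-labelled libraries.

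A further 172 tested genes of the same pathways, outside the 44, were counted in the same way. In WT against LacZ 7 (4.07%) were called, 5 higher and 2 lower, beside 5.34% of all genes (1.95% higher and 3.39% lower). In K815R 1 (0.581%) was called, and it was higher, beside 2.47% (0.74% higher and 1.74% lower). The K815Q-labelled libraries had 7 (4.07%), 2 higher and 5 lower, beside 7.85% (2.87% higher and 4.98% lower). Each of the 3 shares lay below that of all genes. Their median log2 fold changes were 0.03, 0.02 and 0.02. Between the forms the counts were 0, 1 (0.581%) and 0, beside 2.2%, 1.07% and 0.363% of all genes, and DESeq2 made no call. At an unadjusted p under 0.05 there were 21, 23 and 12 (12.2%, 13.4% and 6.98%), beside 13.8%, 14.4% and 11.4% of all genes. Without LacZ replicate 2, LacZ replicate 3 or WT replicate 2 the 7 in WT became 2, 2 and 1. Without LacZ replicate 2, LacZ replicate 3, K815Q replicate 1 or K815Q replicate 3 the 7 in the K815Q-labelled libraries became 3, 3, 2 and 4. The call in K815R was lost without any 1 of LacZ replicates 1 and 2 and the 3 K815R replicates, and the call between forms without any WT replicate or without K815Q replicate 1 or 3.

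Of 45 further mTORC1 regulators, Flcn, the folliculin gene that acts in amino acid signalling to mTORC1, rose in WT (103, 106 and 108 CPM in LacZ, 129, 130 and 122 in WT; log2 fold change 0.26, adjusted p = 0.00443). Its partner Fnip2 fell in the K815Q-labelled libraries against WT, by 0.41 on the log2 scale (adjusted p = 0.0396). Grb10, an adaptor that mTORC1 phosphorylates, rose in WT and K815R by 0.18 and 0.21 (adjusted p = 0.0455 and 0.0334). It stood at 0.16 in the K815Q-labelled libraries (adjusted p = 0.0704). Pdcd4, a translation repressor degraded after S6 kinase phosphorylates it, rose in the K815Q-labelled libraries by 0.29 (adjusted p = 0.00586). It stood at 0.23 in K815R (adjusted p = 0.0505) and 0.14 in WT (adjusted p = 0.207). The other 2 genes of the list called in the K815Q-labelled libraries against LacZ fell. They were Sesn3 (a sestrin, at -0.49, adjusted p = 0.0469) and the 4E-BP1 relative Eif4ebp2 (at -0.23, adjusted p = 0.0426). In WT they stood at -0.46 and -0.17 (adjusted p = 0.0744 and 0.147). In K815R they stood at -0.295 and -0.135 (adjusted p = 0.351 and 0.38). Of 38 further autophagosome genes, the WIPI relative Wdr45 rose in WT by 0.24 (adjusted p = 0.0279). It stood at 0.20 in K815R (adjusted p = 0.117) and 0.20 in the K815Q-labelled libraries (adjusted p = 0.0556). The ER-phagy receptor Tex264 rose in the K815Q-labelled libraries by 0.20 (adjusted p = 0.0378). It stood at 0.16 in K815R (adjusted p = 0.196) and 0.08 in WT (adjusted p = 0.494). Except for Fnip2, none of these genes was called between the forms.

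Of 50 further lysosomal genes, Scarb2, a lysosomal membrane protein that carries glucocerebrosidase, fell in WT and in the K815Q-labelled libraries. It was at 130, 143 and 142 CPM in LacZ, 112, 118 and 122 under WT, 113, 133 and 124 under K815R and 106, 117 and 110 in the K815Q-labelled libraries. The log2 fold changes were -0.23 and -0.32 (adjusted p = 0.0187 and 0.00172). Gnptab, whose enzyme makes the mannose 6-phosphate tag that routes hydrolases to lysosomes, fell in both, at -0.22 and -0.24 (adjusted p = 0.0438 and 0.0231). Ids, the iduronate sulfatase gene, fell in the K815Q-labelled libraries, at -0.33 (adjusted p = 0.0311). In WT it stood at -0.20 (adjusted p = 0.211) and in K815R at -0.07 (adjusted p = 0.778). Cln3 and the mannosidase gene Man2b1 rose in WT, by 0.37 and 0.18 (adjusted p = 0.0229 and 0.0339). In K815R they stood at 0.24 and 0.03 (adjusted p = 0.243 and 0.835). In the K815Q-labelled libraries they stood at 0.10 and 0.03 (adjusted p = 0.564 and 0.743). None of 19 further receptor genes and none of 20 further V-ATPase subunit genes was called in any comparison by edgeR or DESeq2. At an unadjusted p under 0.05, 5 of the 20 V-ATPase genes were higher and 0 lower in K815R against LacZ, where their median log2 fold change was 0.08. Of all genes, 13.8% passed that threshold there, in either direction. Against LacZ, 0 V-ATPase genes were higher and 1 lower in WT, and 1 was higher and 2 lower in the K815Q-labelled libraries.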

How the data were processed

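Counts per Ensembl rat gene were deposited by the authors as raw whole numbers, 1 column for each of the 12 libraries. Per the labels' protocols, poly(A) RNA was made into libraries with a strand-specific kit and read for 75 cycles. The labels describe the reads both as paired-end and as single. The submitters' processing notes name Trimmomatic 0.39, HISAT2 2.2.1, HTSeq 0.6.1, edgeR and the build Rnor_6.0, while the annotation release and the strand setting of the counting are not given in the sources used here. The deposited table ends with counter lines, left out of library sizes and tests: 25.6% to 26.9% of reads aligned at more than 1 place, 11.7% to 12.9% hit no feature, the unaligned made up 2.69% to 3.06%, and the ambiguous 0.461% to 0.5%. Genes with near-identical copies are thus counted from part of their reads.

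Counts were analysed with edgeR 4.0.16 (R 4.3.3): filterByExpr (minimum count 10, minimum total 15) left 14063 genes, scaled by TMM (factors 0.968 to 1.02). One model with a mean for each of the 4 groups was fitted to all 12 libraries (glmQLFit, robust), with 6 pairwise quasi-likelihood tests and 1 test for any difference, Benjamini-Hochberg adjusted over all genes. The common biological coefficient of variation was 0.0581. Levels are CPM, mean ± SD (n = 3). SEs and 95% intervals are of the log2 fold change. The procedure was checked on simulated counts for WT against LacZ, with changed genes drawn from those with more counts. Of 100 genes changed by 0.3 on the log2 scale, 43 were called. Of 100 changed by 1, 100 were called, and 5 unchanged genes were called. Alternatives were RLE scaling, other filters on low counts, DESeq2 1.42.0, a replicate block, only the 6 libraries compared, and leaving out each library. The correction for gene length (20 bins) was added after the data were seen.

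The members and gene lists were chosen with earlier results of these data known. Library values are given for members called in any test, for Mtor, Ulk1, Tfeb, Map1lc3b, Sqstm1, Lamp1 and Ctsd whatever their result. Of each further list, up to 4 called genes are named, by smallest p in the test for any difference. Promoters are shown for called members that hold the E-box. Sesn3, Eif4ebp2, Ids and the library values of Deptor, Flcn and Scarb2, and the matches in Lamp1, Ctsd and Atg3, were added after their values were seen. Of the further genes listed, 11 had no row. Promoter sequences and gene lengths are from RefSeq (GRCr8). Promoters were matched by symbol, and lengths by Ensembl gene or, where that gave none, by symbol. The build of the counts differs, and no genome of it was used here.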

Additional observations from a re-analysis of the deposited data

How the results depend on the processing

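Of 264 results (44 members in 6 pairwise comparisons), 248 kept their call or its absence in every alternative, 7 lost a call and 9 gained one in 1 or more, and none with a call reversed. Pink1 kept both calls throughout, and the 7 lost were all the other calls. The rest of the 248 were results without a call in any setting. Without a filter on low counts, the members called became 8 in the K815Q-labelled libraries against LacZ. Rictor and Foxo1 were added there (adjusted p = 0.00947 and 0.0373). The members called became 1 in K815R against WT and 1 in the K815Q-labelled libraries against WT. Between K815R and those libraries 2 were called, and among the 4 groups 8. The further genes called became 2 in K815R against LacZ, 2 in the K815Q-labelled libraries against WT and 13 among the 4 groups. That setting also moved the calls over all genes from 348 to 600 in K815R against LacZ, 309 to 553 in K815R against WT, 151 to 423 in the K815Q-labelled libraries against WT, 51 to 307 between K815R and those libraries, and 1143 to 2036 among the 4 groups. DESeq2 called 2 members in K815R against WT, 1 in K815R against the K815Q-labelled libraries, and 0 further genes in the latter against WT, and 105 of all genes between K815R and those libraries. With only the 6 libraries compared, K815R against LacZ had 0 members and 0 further genes called, K815R against WT had 1 member, and K815R against the K815Q-labelled libraries had 85 genes in all. With the gene length correction, 1 member was called in K815R against WT and 1 in K815R against the K815Q-labelled libraries (79 genes in all), and the further genes called became 3 in K815R against LacZ, 1 in K815R against WT and 0 in the K815Q-labelled libraries against WT. The causes of these changes were not tested.

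Same-numbered libraries correlated weakly: 1 of 18 pairs had a correlation of deviations over 0.1 (range -0.127 to 0.122), and 8 of 18 correlated best with their own number. The pairs were not alike. With LacZ the correlations were -0.127 to 0.0279, and only K815Q replicate 1 matched its own number best. Among the other groups they were 0.000193 to 0.122, and all matched their own number best except K815R replicates 2 and 3 with WT. Whether replicate numbers mark a shared preparation was not tested. With the replicate block, the K815Q-labelled libraries against WT had 1 member called (Mtor, adjusted p = 0.0364) and 232 genes in all, K815R against LacZ had 2 further genes, and K815R against the K815Q-labelled libraries had 86 genes in all. Against LacZ, the block gave 2 members in WT, 1 in K815R and 7 in the K815Q-labelled libraries (Deptor added, adjusted p = 0.0441).

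Leaving out 1 library at a time, the members called ranged from 1 to 2 in WT, 0 to 1 in K815R and 1 to 7 in the K815Q-labelled libraries against LacZ, were 0 to 0 in all 3 comparisons between forms, and ranged from 2 to 7 among the 4 groups. Further genes ranged from 1 to 7, 0 to 1 and 2 to 9 against LacZ, 0 to 0 in K815R against WT and against the K815Q-labelled libraries, 0 to 1 in the latter against WT, and 2 to 13 among the 4 groups. All genes called ranged from 378 to 639, 173 to 308 and 360 to 1182 against LacZ, 124 to 177, 50 to 146 and 11 to 98 between forms, and 650 to 1309 among the 4 groups. The median SE of a member's log2 fold change was 0.06 in each of the 6 pairwise comparisons, which limits what was detectable at this depth and number of libraries.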
